A study of Mus musculus with 8 samples.

Results

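Foxp3 and the 5 genes of the Ikaros zinc finger family, Ikzf1 to Ikzf5, were taken by symbol from a table of 24421 genes, and all 6 passed the filter on low counts among 12363 genes tested. The cells were follicular regulatory T (TFR) cells, T cells that express Foxp3, enter the follicle and hold back the germinal centre. They were sorted from spleen as CD4+ T cells positive for a Foxp3-YFP reporter, CXCR5 and PD1, at day 36 of an allergy model in which both groups had been fed peanut with cholera toxin in 2 challenges. One group of 4 libraries is labelled wildtype (WT), and the other 4 carry a floxed Blimp1 gene with Foxp3-cre (Blimp1-flox). Blimp1, encoded by Prdm1, is a transcriptional repressor, and Foxp3-cre targets it in Foxp3-expressing cells in general, not in TFR cells alone. How complete the deletion was in these cells is not known. Whether the WT mice carried the cre, how many alleles were floxed, the age and strain of the mice, and whether each library came from a separate mouse are not stated in the labels. The p-values therefore refer to the variation among these 8 libraries, which may be technical in part.

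Foxp3 is the forkhead transcription factor that defines the regulatory T cell lineage, and its gene lies on the X chromosome. Ikaros proteins bind DNA through a set of zinc fingers near one end and pair with each other through a second set at the other end, and they recruit chromatin complexes such as NuRD that repress or sometimes activate genes. Ikaros (Ikzf1) acts throughout lymphocyte development, Helios (Ikzf2) stabilizes regulatory T cells, Eos (Ikzf4) is a corepressor that binds Foxp3, Aiolos (Ikzf3) is abundant in B cells and in follicular and TH17-type T cells and helps to silence Il2, and Pegasus (Ikzf5) is the most divergent and least studied member.

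In the mm10 coordinates of the deposited table, Foxp3 lies on chromosome X from 7579676 to 7595243 on the plus strand. Ikzf1 (chromosome 11, 11685925 to 11772926, plus strand) and Ikzf3 (chromosome 11, 98464693 to 98546031, minus strand) share a chromosome. Ikzf2 lies on chromosome 1 (69531210 to 69685960, minus strand), Ikzf4 on chromosome 10 (128632415 to 128645993, minus strand) and Ikzf5 on chromosome 7 (131388649 to 131410478, minus strand). No exon of the 5 Ikaros genes overlapped an exon of another gene in the table. Foxp3 differed in this: of its 3928 exon bases, 590 (15.0%) overlap Ccdc22 on the opposite strand and 267 (6.80%) overlap Ppp1r3fos, a transcript on the same strand. Reads in those bases can be dropped or given to either gene, so the Foxp3 counts are uncertain to that extent.

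The RefSeq promoter table (GRCm38.p6) held entries for 3 of the 6 members, Foxp3, Ikzf1 and Ikzf5. The 250 bases before the first Foxp3 start are shown because they lie wholly inside the last exon of Ppp1r3fos (chromosome X, 7577908 to 7581016), whose level is compared with that of Foxp3 later on. The capitals mark a match to the forkhead core TAAACA, which begins 177 bases before the start. The window is chrX:7579426-7579675 on the plus strand.
Foxp3 promoter: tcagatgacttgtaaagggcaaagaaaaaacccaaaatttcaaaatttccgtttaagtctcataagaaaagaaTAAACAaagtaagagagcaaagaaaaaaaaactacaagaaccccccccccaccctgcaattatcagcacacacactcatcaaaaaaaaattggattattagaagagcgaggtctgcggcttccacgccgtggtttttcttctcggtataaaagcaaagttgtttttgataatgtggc

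On either strand TAAACA occurred in 12% of all 32851 RefSeq promoter windows of this length. The core GGGAA bound by Ikaros proteins occurred in 56.2% and the core GAAAG bound by Blimp1 in 51.5%, and neither was found before either of the 2 Foxp3 starts. GGGAA occurred 2 times before one of 2 Ikzf1 starts and 1 time before the Ikzf5 start, and GAAAG 1 time before the Ikzf5 start. Matches of such short letters are a description of the sequence only.

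Library totals ranged from 16425538 to 27595939 counts. Prdm1 was at 51.8 ± 19.2 CPM in the WT group and fell to 11.8 ± 4.02 CPM (SD, n = 4) or by 4.41-fold with no overlap between the groups (edgeR adjusted p = 0.0203), although the call was lost in 4 of 19 alternatives, among them leaving out Blimp1-flox 1 (adjusted p = 0.103). Genes that define the sorted cells were high in every library, with a summed level for 8 of them (among them Cd3e, Cd4, Cxcr5, Pdcd1 and Il2ra, which fell) of 5302 to 6492 CPM in WT and 5557 to 6584 CPM in Blimp1-flox, and Cd8a did not exceed 0.351 CPM. The 18 B cell markers with rows, of 21 listed, summed to 621 to 2701 CPM in WT, the highest in WT 4, and to 561 to 701 CPM in Blimp1-flox. Of these markers Fcer2a was at 0 in Blimp1-flox 4. The summed level of 14 pancreas transcripts was 33.2 to 71.2 CPM in WT and 51.8 to 107 CPM in Blimp1-flox. Cela1 was the highest of them in every library, at 27.5 to 34.3 CPM in WT and 39.7 to 67.3 CPM in Blimp1-flox. Of the 14, 10 were at 0 in WT 1, 9 in WT 3 and 10 in Blimp1-flox 4, against 1 in each other library. The 14 myeloid and dendritic markers summed to 34.7 to 54.0 CPM in WT and 28.1 to 119.8 CPM in Blimp1-flox. The 8 plasma cell markers summed to 312 to 379 CPM in WT and 296 to 404 CPM in Blimp1-flox, and the 8 CD8 and NK markers to 69.2 to 78.3 and 59.0 to 72.3 CPM. Of the latter, Cd8b1 held 10.4 to 17.9 CPM, Klrb1c 13.5 to 37.4 CPM and Nkg7 9.16 to 37.6 CPM over all libraries, named after their values were seen. Nkg7 was lower in Blimp1-flox (edgeR adjusted p = 0.0470), and the other 3 markers tested did not pass. Cd8a, Ncr1, Klrd1 and Klre1 were too low to be tested.

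None of the 6 members passed the test between the genotypes, where 0.501% of all genes did (62 of 12363; 0.259% higher and 0.243% lower in Blimp1-flox). Foxp3 and Ikzf3, 2 of the 6, had an unadjusted p under 0.05, as did 16.2% of all genes. Their log2 fold changes had opposite signs, lower for Foxp3 and higher for Ikzf3. Over the members 4 log2 fold changes were negative and 2 positive, with a median of -0.13, against 49.9% negative and a median of 0.0012 over all genes. In no member were the groups of libraries free of overlap, while 8.47% of all genes had no overlap (3.75% higher and 4.72% lower in Blimp1-flox).

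**Figure D1:**
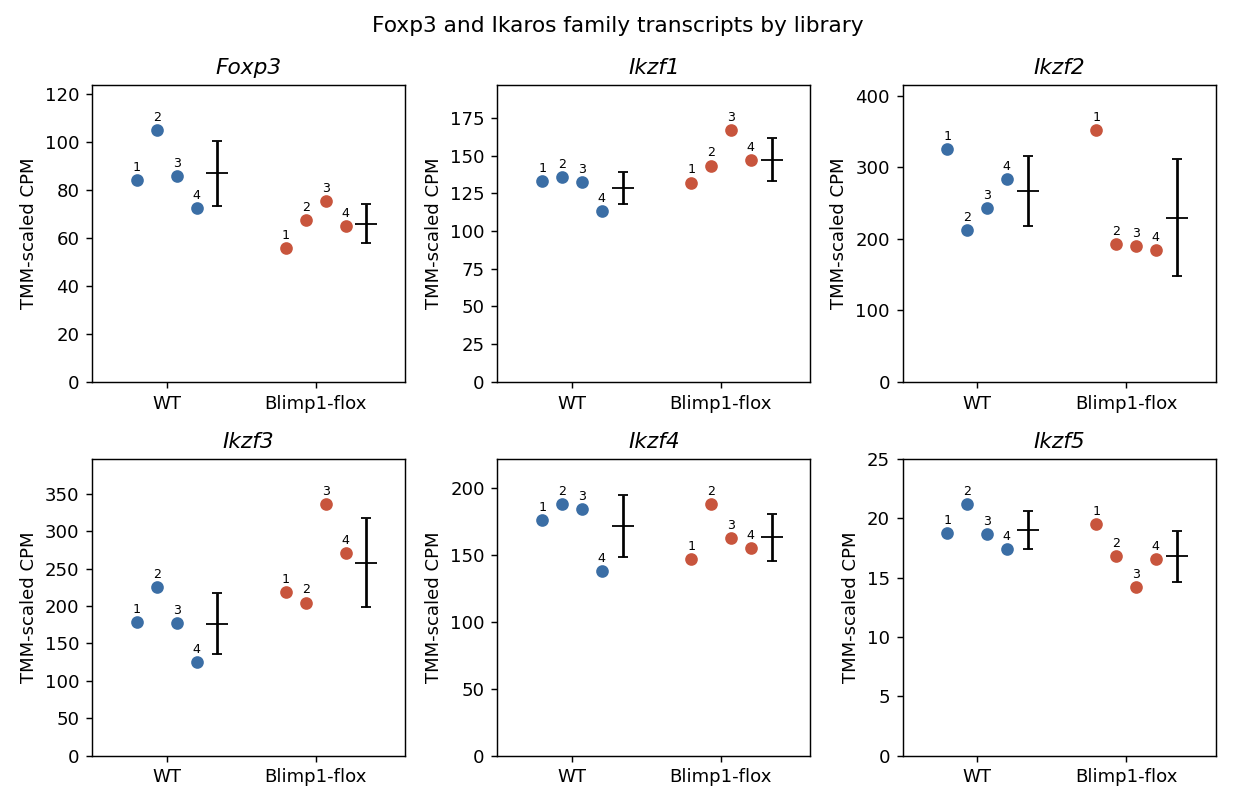
Level of each member (vertical axis, TMM-scaled CPM from 0) in each WT and Blimp1-flox library, numbered by replicate, with the mean and SD of each group as a black bar. The 4 WT values of Foxp3 lie between 72.5 and 105 CPM and the Blimp1-flox values between 55.7 and 75.5 CPM, and Blimp1-flox 1 stands apart for Ikzf2 at 352 CPM.

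Foxp3 held 84.4, 105, 86.0 and 72.5 CPM in WT libraries 1 to 4, against 55.7, 67.5, 75.5 and 65.0 CPM in Blimp1-flox libraries 1 to 4. WT 1, WT 2 and WT 3 lay above every Blimp1-flox library, and the overlap came from WT 4, the lowest of its group, and Blimp1-flox 3, the highest of its group. The means were 87.0 ± 13.4 CPM in WT and 65.9 ± 8.14 CPM in Blimp1-flox (SD, n = 4). The log2 fold change was -0.40 ± 0.13 (SE), or 0.759-fold with a 95% interval from 0.628 to 0.917, with edgeR adjusted p = 0.176, which is not a pass. Quality-weighted limma-voom did call it (-0.43, adjusted p = 0.0321), a fit that called 4% of all genes, and DESeq2 did not (-0.39, adjusted p = 0.0784), which called 3.81%. The sign was negative in all 19 alternatives, and the adjusted p ranged from 0.0321 to 0.571. WT 4 was the library with the highest B cell marker level, and once a B cell score entered the model the estimate for Foxp3 was -0.71 on the log2 scale (edgeR adjusted p = 0.571). That fit called 0 genes in all. Genotype accounted for 62.6% of the variance of the score, so the B cell level and the genotype cannot be told apart in it. The cells were sorted on the Foxp3 reporter, so the presence of Foxp3 is part of the gate, and in these bulk libraries fewer cells with a high level and less RNA per cell cannot be told apart.

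The genes next to Foxp3 were examined because 2 of them, Ppp1r3fos and Ccdc22, share exon bases with it. Ppp1r3fos held 6.94, 8.17, 6.28 and 5.56 CPM in WT libraries 1 to 4, against 4.08, 3.99, 5.32 and 4.35 CPM in Blimp1-flox libraries 1 to 4. All 4 WT libraries lay above all Blimp1-flox libraries, a pattern seen in 4.72% of all genes in this direction, and the log2 fold change of -0.60 ± 0.21 (SE) did not pass (edgeR adjusted p = 0.207). As for Foxp3, WT 2 was the highest and WT 4 the lowest of the WT libraries, and Blimp1-flox 3 the highest of its group. The same held for Ikzf1 and Ikzf3, which lie on another chromosome, so it is not particular to these neighbours. The lowest Blimp1-flox library differed, Blimp1-flox 1 for Foxp3 and Blimp1-flox 2 for Ppp1r3fos. Ppp1r3f, a regulatory subunit of protein phosphatase 1 that has 310 exon bases in common with Ppp1r3fos and none with Foxp3, showed a log2 difference of -0.31 ± 0.14 (SE; edgeR adjusted p = 0.308). Ccdc22, which encodes a subunit of an endosomal sorting complex and overlaps the far end of Foxp3, held 33.0 ± 4.57 CPM in WT and 33.4 ± 1.90 CPM in Blimp1-flox (SD, n = 4). Its log2 fold change of 0.016 had a 95% interval from -0.25 to 0.28, and its sign turned in 6 of 19 alternatives. Cacna1f, the next gene listed, had 8 counts over all 8 libraries and was not tested.

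**Figure D2:**
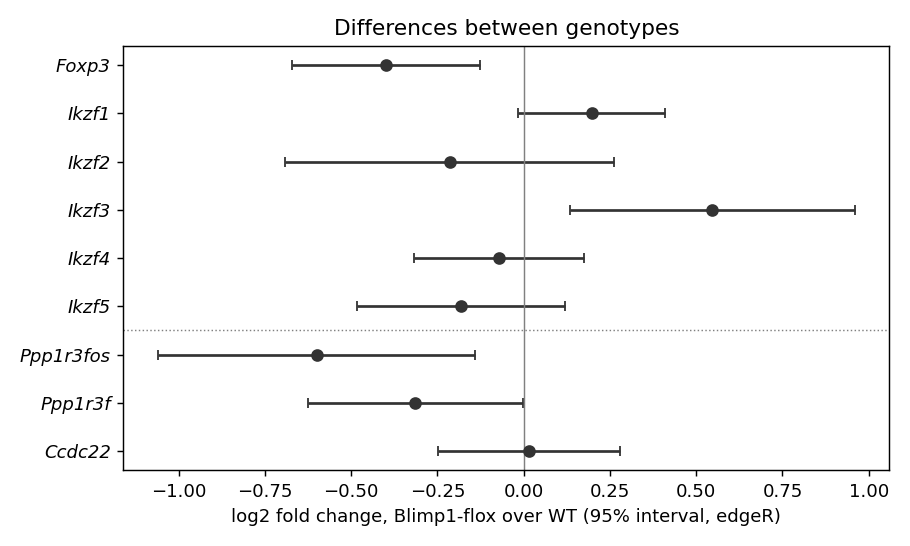
Log2 fold change of Blimp1-flox over WT (horizontal axis) with its 95% interval from edgeR, for the 6 members above the dotted line and 3 neighbours of Foxp3 under it. The intervals of Foxp3 (-0.67 to -0.12) and Ikzf3 (0.14 to 0.96) leave out 0 before adjustment for the number of genes, and those of Ikzf1, Ikzf2, Ikzf4 and Ikzf5 hold it.

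Ikzf3, which encodes Aiolos, held 179, 225, 178 and 125 CPM in WT libraries 1 to 4, against 219, 205, 337 and 271 CPM in Blimp1-flox libraries 1 to 4. Blimp1-flox 3 and 4 lay above every other library, while WT 2 lay just above Blimp1-flox 1 and 2, and WT 4 below all. The log2 fold change was 0.55 ± 0.19 (SE), from 177 ± 41.2 to 258 ± 59.7 CPM (SD, n = 4), or 1.46-fold with a 95% interval from 1.10 to 1.94. It did not pass (edgeR adjusted p = 0.205, and 0.0579 to 0.949 over all alternatives). Once a B cell score entered the model the estimate was -0.094 (edgeR adjusted p = 0.949). WT 4, the library with the highest B cell marker level, held the least Ikzf3, and the part of B cell RNA in the Ikzf3 difference was not tested beyond that fit. Genotype accounted for 62.6% of the variance of the score, so the B cell level and the genotype cannot be told apart in that fit.

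Ikzf2, the Helios gene, held 325, 213, 243 and 284 CPM in WT libraries 1 to 4, against 352, 193, 190 and 185 CPM in Blimp1-flox libraries 1 to 4. Blimp1-flox 2, 3 and 4 lay close together below every WT library, and Blimp1-flox 1 lay above all of them. With it the log2 fold change was -0.21 ± 0.22 (SE; edgeR adjusted p = 0.658), with a 95% interval from 0.619-fold to 1.20-fold. Without Blimp1-flox 1 it was -0.50, again short of the threshold (edgeR adjusted p = 0.224), where leaving out the highest library of a group lowers its mean by construction. The spread over Blimp1-flox libraries, a coefficient of variation of 35.5%, compares with a median of 13.7% over all tested genes, and in WT it was 18.3% against 13.9%. Blimp1-flox 1 was also the library with the lowest total count and the lowest Foxp3.

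Ikzf4, which encodes Eos, held 176, 188, 184 and 138 CPM in WT libraries 1 to 4, against 147, 188, 163 and 155 CPM in Blimp1-flox libraries 1 to 4. WT 4 was the lowest of all 8 libraries and the groups overlapped over most of their range. The log2 fold change was -0.071 ± 0.11 (SE), with a 95% interval from 0.802-fold to 1.13-fold (edgeR adjusted p = 0.792).

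Ikzf1, the Ikaros gene, varied least between libraries of a group, with a coefficient of variation of 8.16% in WT and 9.80% in Blimp1-flox. It held 133, 136, 132 and 113 CPM in WT libraries 1 to 4, against 132, 143, 167 and 147 CPM in Blimp1-flox libraries 1 to 4. WT 4 was again the lowest library, and Blimp1-flox 1 lay just under WT 1 to 3, with the other Blimp1-flox libraries above all WT libraries. The log2 fold change was 0.20 ± 0.098 (SE), or 1.15-fold with a 95% interval from 0.989 to 1.33 (edgeR adjusted p = 0.345). Once a B cell score entered the model it was -0.026 (edgeR adjusted p = 0.979).

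Ikzf5, the Pegasus gene, was the member with the fewest counts, from 321 to 491 per library. It held 18.8, 21.2, 18.7 and 17.4 CPM in WT libraries 1 to 4, against 19.5, 16.8, 14.2 and 16.6 CPM in Blimp1-flox libraries 1 to 4. Blimp1-flox 2, 3 and 4 lay below all WT libraries, and Blimp1-flox 1 lay within the WT range. The log2 fold change was -0.18 ± 0.14 (SE), with a 95% interval from 0.716-fold to 1.09-fold (edgeR adjusted p = 0.547).

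Per kilobase of exon, Ikzf4 and Ikzf3 were the highest members and Ikzf5 the lowest. In WT the order of the levels was Ikzf4 (47.9 ± 6.42 RPKM), Ikzf3 (43.1 ± 10.1), Ikzf2 (28.3 ± 5.19), Ikzf1 (22.7 ± 1.85), Foxp3 (22.1 ± 3.42) and Ikzf5 (4.33 ± 0.364; all SD, n = 4). In Blimp1-flox it was Ikzf3 (63.0 ± 14.6 RPKM), Ikzf4 (45.5 ± 4.93), Ikzf1 (26.0 ± 2.55), Ikzf2 (24.4 ± 8.65), Foxp3 (16.8 ± 2.07) and Ikzf5 (3.83 ± 0.493; all SD, n = 4). Some neighbours in the order kept it in every library of a group, such as Ikzf3 over Ikzf2 in WT, Ikzf4 over Ikzf1 in Blimp1-flox and Foxp3 over Ikzf5 in both, and others did not. Ikzf4 exceeded Ikzf3 in 3 of 4 WT libraries and Ikzf3 exceeded Ikzf4 in 3 of 4 Blimp1-flox libraries. Ikzf2 exceeded Ikzf1 in 3 of 4 WT libraries and Ikzf1 exceeded Ikzf2 in 3 of 4 Blimp1-flox libraries. Foxp3 lay below Ikzf1 in 3 of 4 WT and in 4 of 4 Blimp1-flox libraries. Averaged over all libraries, Ikzf3 stood above 84.5% of tested genes per kilobase, Foxp3 above 62.8% and Ikzf5 above 30.7%. These levels rest on the summed exon length of each gene, and transcripts shorter than it would be given too low a level.

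The make-up of the family can be read as the share of each gene in the summed RPKM of the 5 Ikaros genes, which was 123 to 159 RPKM in WT and 152 to 180.5 RPKM in Blimp1-flox. The share of Ikzf3 was 28.2%, 34.6%, 29.2% and 24.7% in WT 1 to 4 and 33.5%, 32.9%, 45.5% and 41.7% in Blimp1-flox 1 to 4. WT 2 lay above the 2 lowest Blimp1-flox libraries, and the other WT libraries below all Blimp1-flox libraries. The share of Ikzf2 was 22.3%, 14.2%, 17.4% and 24.5% in WT 1 to 4 and 23.4%, 13.5%, 11.2% and 12.3% in Blimp1-flox 1 to 4, so that Blimp1-flox 1 held a share like those of WT 1 and WT 4. Ikzf4 made up 32.7 ± 1.54% in WT and 28.2 ± 4.30% in Blimp1-flox, and Ikzf1 15.6 ± 0.538% and 16.0 ± 0.923% (SD, n = 4). The ratio of Ikzf3 to Ikzf2 per kilobase was 1.26, 2.43, 1.68 and 1.01 in WT 1 to 4 and 1.43, 2.44, 4.08 and 3.38 in Blimp1-flox 1 to 4. It was highest in Blimp1-flox 3 and 4, and Blimp1-flox 1 lay between WT values. These shares are set by the members themselves and were not tested.

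**Figure D3:**
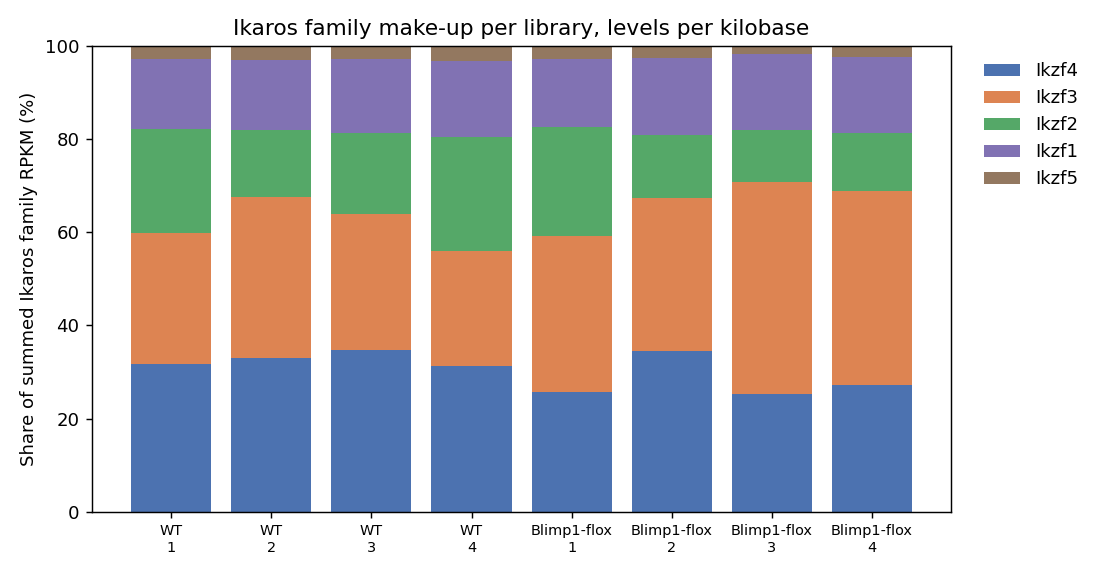
Share of each Ikaros gene in the summed RPKM of the family (vertical axis, percent) in each of the 8 libraries, as stacked bars that add to 100%. The Ikzf3 segment is 45.5% in Blimp1-flox 3 and 24.7% in WT 4, and the Ikzf2 segment of Blimp1-flox 1 is 23.4% against 11.2% to 13.5% in the other Blimp1-flox libraries.

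Ikaros proteins work through NuRD and other corepressors, and of 18 such genes tested none passed in either direction, with 9 positive and 9 negative log2 fold changes and a median of -0.010. The 2 with the lowest p were Chd3, a helicase of NuRD, with a log2 difference of -0.41 ± 0.14 (SE; edgeR adjusted p = 0.204), and Rbbp4, a histone-binding subunit, at 0.29 ± 0.10 (SE; adjusted p = 0.207). The main NuRD helicase gene Chd4, chosen after its values were seen, held 145 ± 6.54 CPM in WT and 139 ± 15.9 CPM in Blimp1-flox (SD, n = 4). Ikaros and Aiolos are also the proteins that the cereblon ubiquitin ligase degrades in the presence of thalidomide-type drugs. None of 7 genes of that ligase passed, with a median log2 fold change of -0.026. Its adaptor gene Ddb1 showed a log2 difference of 0.18 ± 0.12 (SE; edgeR adjusted p = 0.478) and its ring finger gene Rbx1 0.12 ± 0.10 (SE; adjusted p = 0.593).

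Among 20 genes for proteins reported to bind Foxp3, none passed, 9 log2 fold changes were positive and 11 negative, and the median was -0.0038. Foxp1, a forkhead factor related to Foxp3, showed a log2 difference of -0.41 ± 0.11 (SE; edgeR adjusted p = 0.112) with no overlap, from 265 ± 18.1 to 200 ± 28.7 CPM (SD, n = 4). It passed in 2 of 19 alternatives, DESeq2 (adjusted p = 0.0229) and limma-voom with quality weights (adjusted p = 0.0255). Of 9 tested genes that act on the stability or acetylation of Foxp3 protein none passed, with a median of -0.15. The acetyltransferase genes Ep300 and Kat2b had log2 fold changes of -0.29 ± 0.13 and -0.21 ± 0.11 (SE; edgeR adjusted p = 0.293 and 0.371).

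Of 26 genes for regulators of the Foxp3 gene none passed, with 17 below and 9 above 0, and the median was -0.15. Smad3, the TGF-beta signal transducer that acts at the first Foxp3 enhancer, had the lowest p, with a log2 difference of -0.50 ± 0.11 (SE; edgeR adjusted p = 0.0800), with 98.2 to 129 CPM in WT and 71.3 to 91.6 CPM in Blimp1-flox. It passed in 4 of 19 alternatives. Bach2, a repressor that limits effector differentiation of regulatory T cells, held 28.7 ± 6.82 CPM in WT and 17.3 ± 3.02 CPM in Blimp1-flox (SD, n = 4; log2 fold change -0.72, edgeR adjusted p = 0.103). Bach2 passed in 3 of 19 alternatives. Groups without overlap were found for 4 of the 26 genes, all lower in Blimp1-flox, against 4.72% of all genes in that direction.

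Genes known to be raised by Foxp3 in regulatory T cells included 4 that fell, none that rose and 18 that did not pass among 22 tested, where 0.243% of all genes fell. The 4 were Gpr83, an orphan receptor gene, Entpd1, the ectonucleotidase CD39, Il2ra, which makes the IL-2 receptor bind with high affinity, and Socs2, a cytokine signalling inhibitor. They were lower by 2.05-fold, 2.38-fold, 2.62-fold and 3.19-fold, against 1.32-fold for Foxp3 itself, which did not pass. The median log2 fold change over the 22 genes was -0.25, and Tnfrsf4 and Il2rb, chosen after their values were seen, had 0.0024 and -0.018. The calls on Gpr83 and Entpd1 were lost in 2 of 19 alternatives, those with a B cell score or the pancreas level as a covariate, with adjusted p up to 0.235 and 0.711. Their log2 fold changes in those 2 fits were -1.20 and -0.97 for Gpr83, against -1.04 without a covariate, and -0.85 and -1.32 for Entpd1, against -1.25. In the B cell score fit edgeR called 0 genes in all, with 696 under 0.05 before adjustment. The call on Il2ra was lost in 5, with adjusted p of 0.105 without WT 2, and 0.1005, 0.0564 and 0.0599 on leaving out Blimp1-flox 1, 2 and 4 in turn, and 0.711 with the B cell score. The call on Socs2 was lost in 9, among them without any one of WT 2, 3 and 4 (adjusted p = 0.104, 0.0545 and 0.0548) and of Blimp1-flox 1, 2 and 4 (0.148, 0.0681 and 0.1705), and with the replicate number as a block (0.0887). None of the 18 B cell markers or of the 13 pancreas transcripts tested passed, 17 of the first had a negative and all 13 of the second a positive log2 fold change, and their summed levels overlapped between the groups. Singly, 10 of the B cell markers were lower and 2 of the pancreas transcripts, Cela1 and Prss2, higher in Blimp1-flox with no overlap. Over all genes 4.72% were lower and 3.75% higher without overlap. Both covariates can therefore carry part of the genotype difference. The part of these transcripts in the calls was not tested beyond those fits. Of genes known to be lowered by Foxp3, none of 14 tested passed, 8 log2 fold changes were negative and 6 positive, and the median was -0.11. Ifng, which encodes interferon gamma, had a log2 difference of -1.09 ± 0.23 (SE; edgeR adjusted p = 0.0633), and Pde3b, a phosphodiesterase gene bound and repressed by Foxp3, was at -0.91 ± 0.21 (SE; adjusted p = 0.0845). Ifng passed in 6 and Pde3b in 2 of 19 alternatives. The lists were chosen with earlier results of these data known and were not tested as sets.

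**Figure D4:**
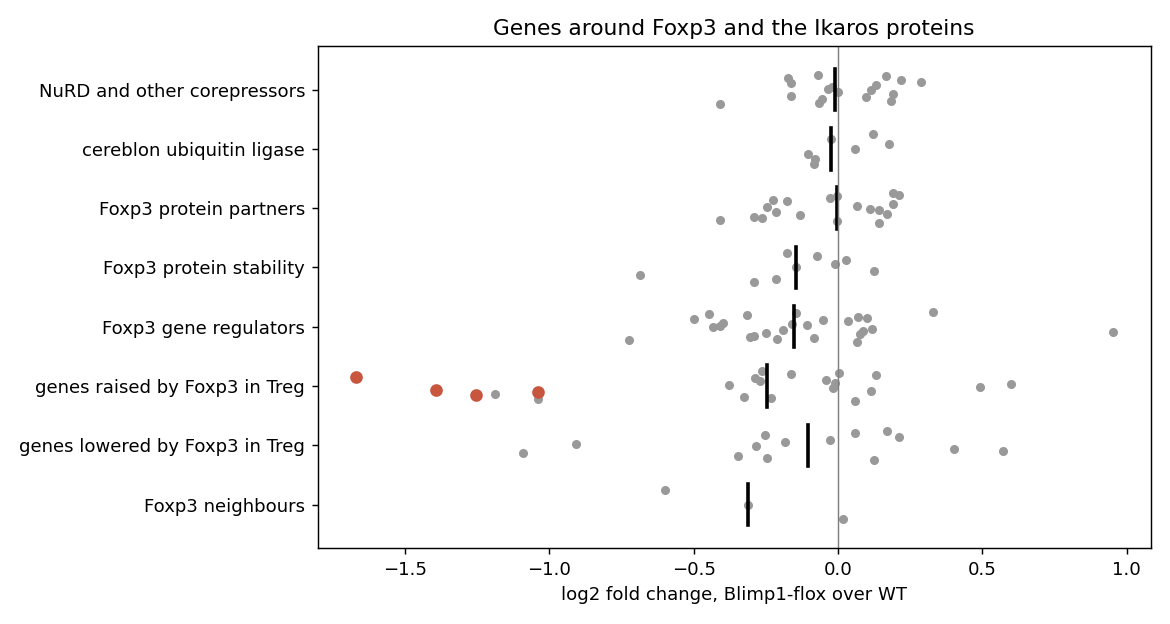
Log2 fold change of Blimp1-flox over WT (horizontal axis) for the tested genes of 8 lists (rows), with the genes that passed in red. Black lines are medians over all tested genes of a list, 1 of which, a Foxp3 protein partner that did not pass, is not plotted. The 4 red points are Gpr83, Entpd1, Il2ra and Socs2.

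The profile of each member over the 8 libraries was compared with those of 6183 genes with a mean log2 CPM of at least 5, by the root mean square difference of centred log2 CPM. Nearest to Foxp3 were Zfp592 (0.0793), a zinc finger gene, Leng8 (0.104) and Phf12 (0.105), a subunit gene of a Sin3 complex, where the median gene was at 0.298. Zfp592 held 132 to 178 CPM in WT and 97.7 to 129 CPM in Blimp1-flox, and its difference was -0.39 on the log2 scale (edgeR adjusted p = 0.142). It passed in 2 of 19 alternatives. Nearest to Ikzf2 were Kdm6b (0.118), a histone H3 demethylase gene, and Mon2 (0.118), a trafficking gene. Both were highest in Blimp1-flox 1 and WT 1, at 50.2 and 48.1 CPM for Kdm6b, as Ikzf2 was. Nearest to Ikzf3 were Plekhf2 (0.179) and Slc19a1 (0.187), the folate carrier gene, a looser likeness than for any other member. Nearest to Ikzf1 were Ext2 (0.0340) and Fam210b (0.0428), to Ikzf4 Pik3cd (0.0499), the lymphocyte PI3 kinase subunit, and Dgkz (0.0589), and to Ikzf5 Helz2 (0.0449) and Cyth4 (0.0737). These are likenesses over 8 libraries that share their depth and composition. The genes were picked for a like profile over these same libraries. Their differences between genotypes and their highest libraries follow in part from that choice and add no evidence on the members.

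**Figure D5:**
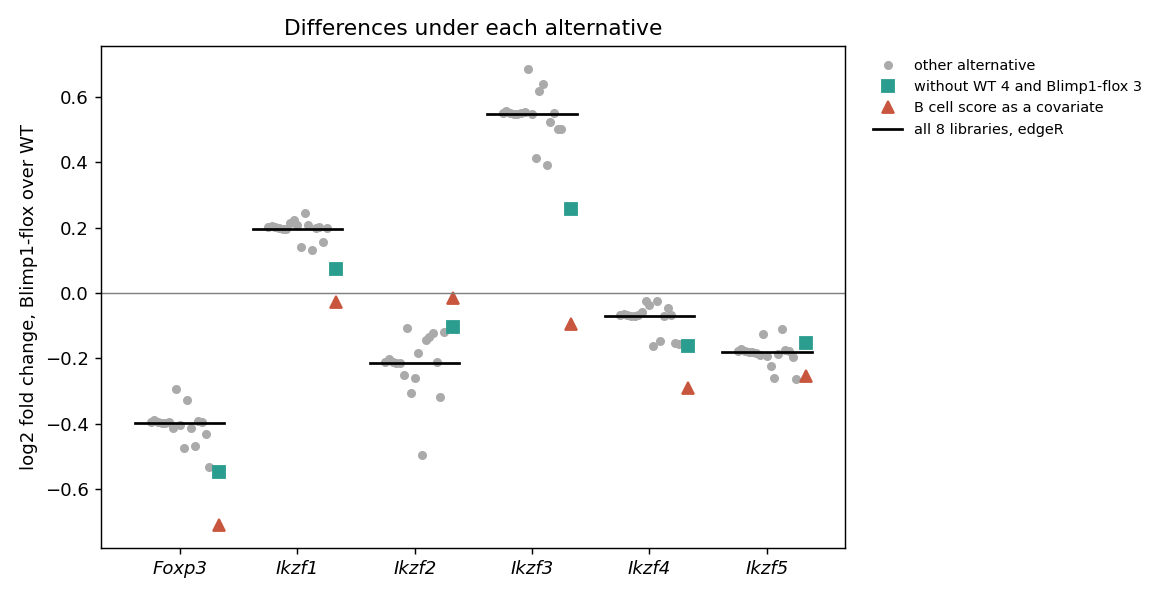
Log2 fold change of Blimp1-flox over WT (vertical axis) of each member with all 8 libraries (black line) and under 19 alternatives (points). Foxp3 stays negative in all of them, from -0.71 to -0.29, while Ikzf1 and Ikzf3 reach -0.026 and -0.094 in the model with a B cell score (red triangles).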

How the data were processed

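Poly(A) RNA was sequenced from sorted splenic TFR cells in 4 WT and 4 Blimp1-flox libraries, grouped by the sample titles. The submitters' processing notes name STAR 2.5.2b, Subread 1.5.1 (featureCounts) and the build mm10; the gene annotation and strand setting are not given in the sources used here. The deposited values are raw counts for 24421 genes, with no normalization by the authors. The deposited table also holds another measurement, the summed exon length of each gene.

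Genes were kept with filterByExpr, which left 12363, and scaled by TMM. Genotypes were compared in R 4.3.3 by edgeR 4.0.16 (robust quasi-likelihood), with genotype alone in the model and Benjamini-Hochberg adjustment over all genes tested. A gene passed at an adjusted p under 0.05. Standard errors came from the F statistic, and 95% intervals are not adjusted for the number of genes. CPM are TMM-scaled, and RPKM are those CPM per kilobase of exon length.

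The members, the gene lists and the tests were chosen with earlier results of these data known. The genes named are the 6 members, Prdm1, the neighbours of Foxp3, up to 4 genes that passed in each list (or the 2 with the lowest p where none did), and the nearest genes by profile. Other genes are named as chosen after their values were seen. Alternatives were DESeq2 1.42.0, scaling by RLE, upper quartile or totals, limma-voom (limma 3.58.1) with quality weights, other low-count filters, a replicate block, libraries left out, other thresholds, a B cell score as a covariate and, chosen after the data were seen, the summed level of pancreas transcripts as a covariate. The edgeR fit was also tested on simulated data with known changes. Results for a few genes of the lists are not reported here.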

Additional observations from a re-analysis of the deposited data

Results flagged for a closer look

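Single libraries stood apart from the other 3 of their group in 9 of 106 groups of 4 checked for a gap, where chance flags about 1 in 20. The groups are not independent, since some genes were picked for a profile like that of a member and the shares come from the members. The count therefore cannot be weighed against that rate. Among the members, Ikzf2 was at 352 CPM in Blimp1-flox 1 and at 185 to 193 CPM in the other Blimp1-flox libraries, and Ikzf1 was at 113 CPM in WT 4 and at 132 to 136 CPM in the other WT libraries. The share of Ikzf1 in the family was 14.6% in Blimp1-flox 1 and 16.3% to 16.7% in the others of that group.

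Kdm6b, the gene nearest to Ikzf2 in profile, was at 50.2 CPM in Blimp1-flox 1 and at 48.1 CPM in WT 1, each apart from its group. In WT 4, Ddb1 was low at 291 CPM, and Kat2b and Socs2 were high at 40.5 and 10.6 CPM. Phf12 was high in WT 2 at 131 CPM.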

How the results depend on the processing

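None of the 6 members passed in edgeR under the alternatives run, and of 114 fits of members 111 kept both sign and side of the threshold. Foxp3 passed in limma-voom with quality weights, and in the model with a B cell score Ikzf1 (-0.026) and Ikzf3 (-0.094) changed sign. The number of genes that passed was 62, and 20 (without Blimp1-flox 1) to 127 (without WT 1) when 1 library was left out; it was also outside 1.5 times without WT 2 (27), Blimp1-flox 3 (94) or Blimp1-flox 4 (23). It was 157 without WT 4 and Blimp1-flox 3, 453 in DESeq2, 494 in limma-voom with quality weights, 182 at an adjusted p under 0.1 and 16 under 0.01. WT 4 and Blimp1-flox 3 made the Foxp3 groups overlap, so leaving them out separates these groups by construction. Without that pair the log2 fold change of Foxp3 was -0.55 (edgeR adjusted p = 0.0581). In the B cell score model edgeR found 0 genes (696 had p under 0.05 before adjustment), and with the pancreas level, chosen after the data were seen, 35.

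With a B cell score other signs also changed, for Ccdc22 (-0.25), Ddb1 (-0.078), Ext2 (-0.10), Fam210b (-0.11), Plekhf2 (-0.16) and Mon2 (0.11). Ccdc22 changed sign without WT 4 and Blimp1-flox 3 (-0.082), in limma-voom (-0.030) and with the pancreas level (-0.076), and ranged from -0.073 to 0.081 with 1 library left out. Pik3cd ranged from -0.10 to 0.033 in those fits. The causes were not tested, and fits that leave libraries out also rest on fewer of them.

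Deviations of same-numbered libraries of the genotypes correlated between -0.11 and 0.15, against -0.17 to 0.11 for libraries of unlike number. These values cannot exclude a pairing. With the replicate number as a block 52 genes passed, and the log2 fold changes of Foxp3, Ikzf2 and Ikzf3 were -0.40, -0.25 and 0.55. In that fit the unadjusted edgeR p of Ikzf2 was 0.063, against 0.341 without the block, and its adjusted p was 0.318. The edgeR adjusted p of Prdm1 was 0.0034 with the block and 0.0203 without it. The order of the Ikaros genes per kilobase was the same in TPM as in RPKM in both groups. Members held 321 to 9359 counts per library, and counting error was largest for Ikzf5, the member with the fewest.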
